A study of Mus musculus with 24 samples.

Results

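The TRIM family of ubiquitin ligases was followed across pleural fluid cells and pleural tumor cells of mice with a malignant pleural effusion. Members were all genes of the deposited table whose symbol is Trim followed by a number and at most 1 letter, and whose FPKM (fragments per unit of gene length and of sequencing depth) was at least 0.5 in 3 or more of the 24 libraries. Of 54505 genes, 68 had such a symbol and 49 were members. The other 19 lay below the level of the rule. Trim34b and Trim80 entered with 3 libraries and Trim43a with 4, whereas Trim10, Trim15 and Trim17 reached the level in 1 library each, with highest values of 0.759, 0.5701 and 0.524 FPKM. 28 members were at or above 0.5 FPKM in all 24 libraries.

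The mice were C57BL/6 and carried LLC cells (Lewis lung carcinoma, a mouse lung cancer line) in the pleural space. On day 11 they received intrapleural PBS, LNP-CDN (a lipid nanoparticle with 1 µg of the cyclic dinucleotide cGAMP, which activates the receptor STING), 30 µg of an antibody to PD-L1, or LNP-CDN together with that antibody, the combination. RNA was taken on day 13 from the pelleted pleural fluid cells and from enzymatically digested pleural tumors, both after lysis of red blood cells, with 3 libraries in each of the 8 groups. The labels give neither the age of the mice nor whether a fluid library and a tumor library came from the same mouse, and all tumors came from the same cell line. In whole pellets, fewer cells of a type and less RNA per cell cannot be told apart. The table corresponded to 14584438 to 26888253 recovered reads per library, and 12202 to 12694 genes reached 1 FPKM.

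Leukocyte and keratin markers separated the labelled tissues. Ptprc (CD45, on all leukocytes) was between 36.7 and 71.6 FPKM in fluid and between 3.11 and 6.07 FPKM in tumor, and the summed FPKM of Krt8, Krt18 and Epcam, epithelial genes, was 23.6 to 75.5 in fluid and 188 to 260 in tumor. Both keratins were higher in tumor, but Epcam was lower there, at 0.484, 1.41 and 1.07 FPKM in fluid and 0.0819, 0 and 0 FPKM in tumor under PBS, -0.93 (SE 0.25, adjusted p = 0.00279). The Y-linked gene Ddx3y was 21.6 to 23.6 FPKM in the fluid anti-PD-L1 libraries, against at most 0.0283 FPKM in every other fluid library. In the fluid anti-PD-L1 group, therefore, sex and treatment cannot be told apart. In tumor it was 3.27 to 3.44 FPKM in the anti-PD-L1 libraries and 3.55 FPKM in PBS replicate 1, and at most 0.0205 FPKM in the other tumor libraries. Sex and treatment therefore cannot be told apart between anti-PD-L1 and the combination in tumor either. The tumor comparisons of LNP-CDN and of the combination with PBS also include that PBS library, which differs from the treated libraries in Ddx3y.

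Most TRIM proteins carry a RING domain, B-box zinc fingers and a coiled coil, and most attach ubiquitin to other proteins. Several act in the antiviral response. Some bind incoming retroviral capsids, some modify the sensors RIG-I and MDA5 or the adaptors MAVS and STING, and many are themselves switched on by interferon. Others have separate tasks, such as the TIF1 proteins that repress chromatin and the muscle RING finger proteins that mark sarcomere proteins for breakdown. Interferon acts on many of its target genes through a promoter element, the interferon-stimulated response element (ISRE).

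The promoters are shown because the members that rose with LNP-CDN in fluid differed in this element. In RefSeq windows of 300 bases (250 before to 50 after the transcript start, GRCm38.p6), the ISRE core, read as GAAA, then NN (any 2 bases), then GAAA, was searched on both strands. It was found in 3.44% of 32851 promoter windows, and 3.99% of 27025 genes had it in at least 1 window. Windows were matched for 39 of the 49 members. The sequences below run 5′ to 3′ on the strand of the gene, in lower case, with matches to the ISRE core in capitals.
Trim30a: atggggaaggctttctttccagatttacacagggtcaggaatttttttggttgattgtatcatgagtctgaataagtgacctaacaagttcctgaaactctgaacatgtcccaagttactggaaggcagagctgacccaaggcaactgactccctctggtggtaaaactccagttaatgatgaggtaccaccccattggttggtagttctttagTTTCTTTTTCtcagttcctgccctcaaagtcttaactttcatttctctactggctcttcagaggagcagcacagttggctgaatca
Trim30d: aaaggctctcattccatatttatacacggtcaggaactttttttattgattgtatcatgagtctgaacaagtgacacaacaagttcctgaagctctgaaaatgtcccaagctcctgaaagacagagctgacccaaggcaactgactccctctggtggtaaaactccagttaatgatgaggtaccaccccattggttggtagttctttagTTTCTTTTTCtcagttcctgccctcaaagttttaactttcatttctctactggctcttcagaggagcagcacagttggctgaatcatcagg
Trim34a: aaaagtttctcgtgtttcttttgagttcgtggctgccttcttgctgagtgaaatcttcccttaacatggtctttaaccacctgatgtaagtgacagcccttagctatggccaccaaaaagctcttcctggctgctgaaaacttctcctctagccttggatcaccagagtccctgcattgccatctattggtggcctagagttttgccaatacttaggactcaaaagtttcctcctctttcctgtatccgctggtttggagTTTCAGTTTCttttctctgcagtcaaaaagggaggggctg
Trim21: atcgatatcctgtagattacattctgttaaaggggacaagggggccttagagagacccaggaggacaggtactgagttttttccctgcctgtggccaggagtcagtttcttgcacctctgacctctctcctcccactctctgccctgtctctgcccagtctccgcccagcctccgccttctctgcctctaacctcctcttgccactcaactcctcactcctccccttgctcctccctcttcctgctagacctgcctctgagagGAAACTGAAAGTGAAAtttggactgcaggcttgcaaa
Trim30c: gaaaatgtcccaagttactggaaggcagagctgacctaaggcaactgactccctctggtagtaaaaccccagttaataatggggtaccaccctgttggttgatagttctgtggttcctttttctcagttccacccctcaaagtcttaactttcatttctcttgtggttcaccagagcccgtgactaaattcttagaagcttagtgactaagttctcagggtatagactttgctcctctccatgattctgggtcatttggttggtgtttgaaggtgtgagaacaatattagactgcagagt
Trim25: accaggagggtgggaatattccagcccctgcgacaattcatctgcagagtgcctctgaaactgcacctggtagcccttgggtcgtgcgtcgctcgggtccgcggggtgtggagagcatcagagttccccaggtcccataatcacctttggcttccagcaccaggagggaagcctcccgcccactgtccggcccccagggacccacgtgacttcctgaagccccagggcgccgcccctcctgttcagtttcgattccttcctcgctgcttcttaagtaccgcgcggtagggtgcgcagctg
These windows are chr7:104465144-104465443 for Trim30a, chr7:104507800-104508099 for Trim30d, chr7:102565433-102565732 for Trim21 and chr7:104400729-104401028 for Trim30c, all on the minus strand, and chr7:104244207-104244506 for Trim34a and chr11:88999153-88999452 for Trim25, both on the plus strand. Counted from the transcript start, the core began at -36 in Trim30a, at -41 in Trim30d, at 10 in Trim34a, and at 13 and 19, as overlapping matches, in Trim21. The windows of Trim30c and Trim25 held no such match.

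Of the 11 matched members that were higher in fluid under LNP-CDN (below), 8 held the ISRE core: Trim12a, Trim12c, Trim21, Trim26, Trim30a, Trim30d, Trim34a and Trim5. The bases around the core were the same in Trim5, Trim12a and Trim12c, and likewise in Trim30a and Trim30d, so these are not 8 separate sequences. None of the 17 matched members that were tested in fluid and not higher held the core. Among the 11 matched members not tested there Trim2 did. The 8 members with the core and a test had log2 differences from 0.36 to 1.43, with a median of 1.01. The 20 tested members without it ranged from -0.31 to 2.07 with a median of 0.00, and 3 of them were higher, Trim6, Trim25 and Trim30c. Trim30c, with no match in its window, had the largest rise of the tested members. A match to these letters is not evidence of binding.

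In pleural fluid cells, 13 TRIM genes were higher with LNP-CDN than with PBS, 8 of them neighbors on chromosome 7 and 5 of them regulators of innate signaling, while most of the others did not pass the test. Of the 37 members above the expression filter (1 FPKM in 3 of the 12 fluid libraries), 13 rose and 1, Trim27, fell (limma on log2(FPKM + 1), adjusted p below 0.05 over 13518 genes). Of all genes tested, 26.0% passed: 13.7% rose and 12.3% fell. With the combination 14 members rose and 2 fell, Trim27 and Trim28, where 30.1% of all genes passed (15.6% rose and 14.4% fell). The median log2 difference over the 37 members was 0.16, against 0.00 over all genes. The 12 members not tested were Trim2, Trim34b, Trim43a, Trim43c, Trim45, Trim46, Trim54, Trim63, Trim69, Trim7, Trim71 and Trim80. Changes below are differences of log2(FPKM + 1), so they understate the change of genes with low FPKM.

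Of the 13 members that rose, 8 lie in a cluster of 10 members on chromosome 7 (GRCm38, from 104218793 to 104507849), which holds the mouse relatives of TRIM5, a primate factor that binds retroviral capsids. In gene order it contains Trim6, Trim34a, Trim5, Trim12a, Trim34b, Trim12c, Trim30b, Trim30c, Trim30a and Trim30d. With LNP-CDN, 8 of the 9 tested cluster members rose in fluid, with a median log2 difference of 0.99. With the combination all 9 rose, with a median of 1.02. Trim34b stayed untested at 0.353 to 0.569 FPKM under PBS and 0.437 to 0.5798 FPKM under LNP-CDN.

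Trim30a, known in mouse as a brake on signaling to NF-κB, had the highest level of the family in fluid. Its FPKM was 107, 107 and 111 under PBS, 195, 264 and 216 under LNP-CDN and 224, 234 and 206 under the combination. All 6 libraries with LNP-CDN lay above all 3 PBS libraries. The log2 difference was 1.03 (SE 0.15, adjusted p = 0.000978) for LNP-CDN and 1.02 (SE 0.15, adjusted p = 0.000901) for the combination. The 10 cluster genes together made up 42.0% of the summed FPKM of the family under PBS and 56.3% under LNP-CDN, and Trim30a alone made up 18.7% and 23.7%.

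Its neighbors on both sides moved the same way. Trim30c FPKM was 14.1, 14.7 and 14.1 under PBS, 53.3, 82.9 and 56.9 under LNP-CDN and 62.7, 58.1 and 52.01 under the combination. This was the largest rise among the 37 tested members, with mean FPKM 4.51 times that of PBS and a log2 difference of 2.07 (SE 0.15, adjusted p = 3.15e-05). Trim30d FPKM was 43.96, 42.5 and 47.2 under PBS and 85.1, 118 and 84.7 under LNP-CDN, without overlap, a log2 difference of 1.07 (SE 0.17, adjusted p = 0.00139). Trim30b FPKM was 24.1, 22.3 and 26.9 under PBS and 31.7, 51.5 and 26.99 under LNP-CDN. LNP-CDN replicate 2 stood well above the other 2 libraries of its group, and the difference of 0.52 (SE 0.20, adjusted p = 0.0797) did not pass. Under the combination, Trim30b was 38.3, 41.6 and 35.7 FPKM and passed, at 0.64 (SE 0.20, adjusted p = 0.0337), but not when any 1 of the 6 libraries was left out.

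Trim34a, a close relative of Trim34b and of Trim6, was 10.8, 8.93 and 9.42 FPKM under PBS, 23.8, 35.2 and 25.6 under LNP-CDN and 28.1, 29.7 and 27.7 under the combination. No treated library overlapped the PBS libraries, and the log2 difference was 1.43 (SE 0.13, adjusted p = 9.81e-05) for LNP-CDN. Of its 50-base words, 59.7% also occur in transcripts of other genes, mainly Trim34b and Gm47248, and 23.5% of its exon bases overlap Gm47248 on the other strand, so its reads may be shared between them. Trim5 was 4.65, 5.46 and 4.34 FPKM under PBS, 8.17, 11.5 and 8.29 under LNP-CDN and 11.1, 13.8 and 11.5 under the combination, a difference of 0.82 (SE 0.14, adjusted p = 0.00209) for LNP-CDN. Trim12a was 13.2, 13.2 and 14.3 FPKM under PBS, 21.9, 32.7 and 21.1 under LNP-CDN and 25.7, 25.6 and 23.5 under the combination, a difference of 0.82 (SE 0.15, adjusted p = 0.00285) for LNP-CDN. Trim12c was 21.9, 25.4 and 21.2, 40.3, 57.9 and 42.5 and 45.97, 48.1 and 44.04 FPKM in the same groups, 0.99 (SE 0.14, adjusted p = 0.000771). For both genes all treated libraries lay above all PBS libraries. Trim5, Trim12a and Trim12c shared 36.6%, 10.5% and 33.7% of their 50-base words with other genes. Trim6, known in human cells to build the free ubiquitin chains that activate IKKε, had the lowest level of those that rose, at 1.14, 0.988 and 0.833 FPKM under PBS and 1.56, 2.48 and 1.75 under LNP-CDN, and did not pass without fluid PBS replicate 3 or LNP-CDN replicate 2.

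**Figure D1:**
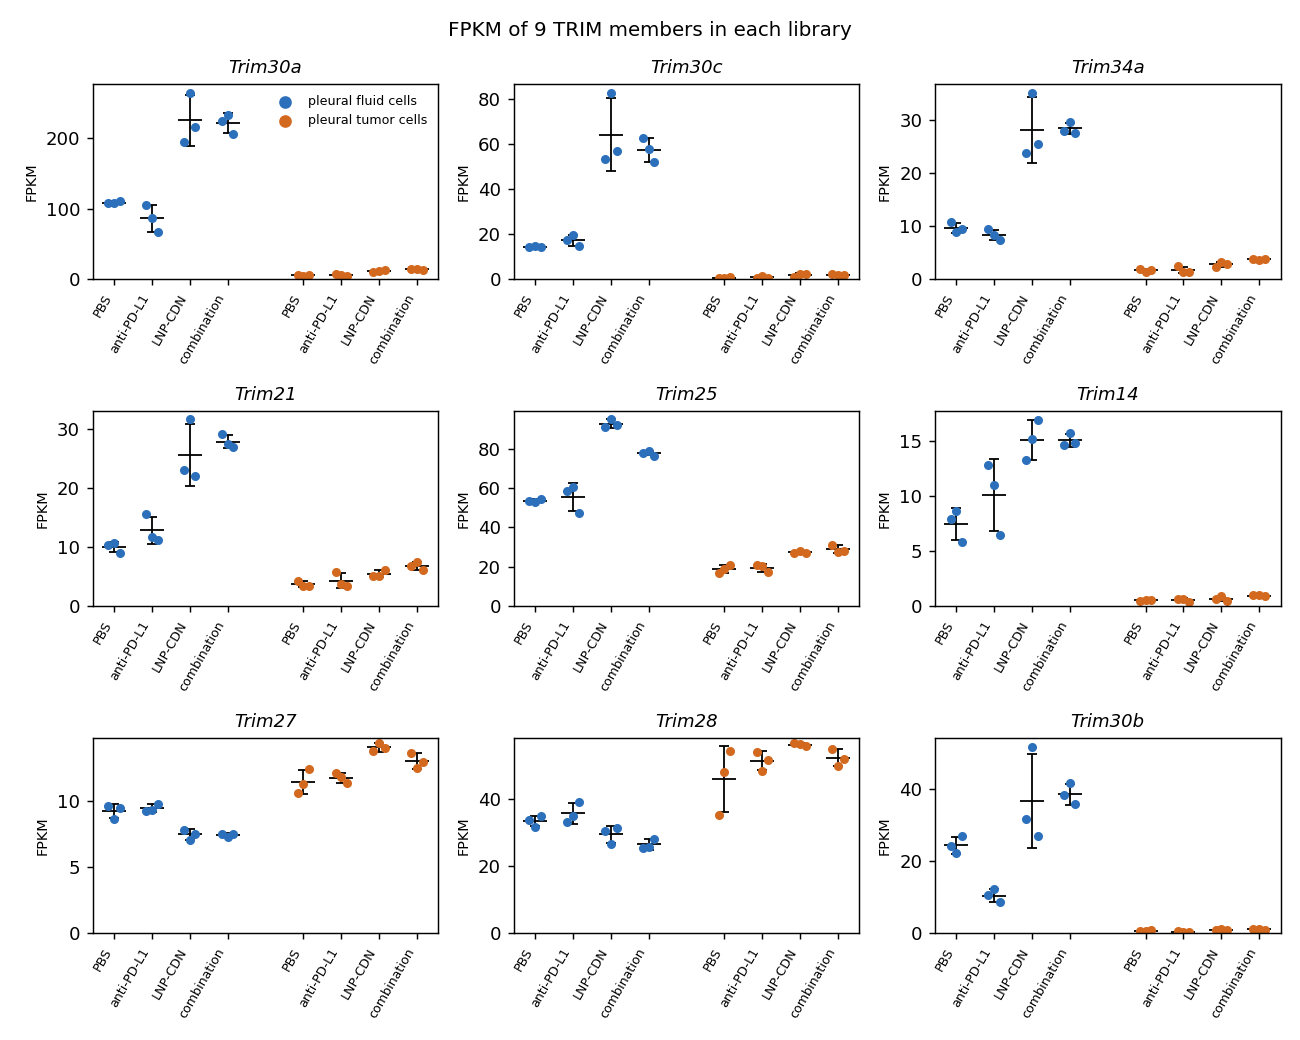
FPKM (linear axis from 0) of 9 members in each library, by treatment, in pleural fluid cells (blue) and pleural tumor cells (orange). Points are libraries, the horizontal mark is the mean and the bar is the SD of 3 libraries; in fluid, all LNP-CDN and combination libraries lie above all PBS libraries for Trim30a, Trim30c, Trim34a, Trim21, Trim25 and Trim14, whereas Trim27 lies below.

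Among the 13 members that regulate innate immune signaling, 5 rose in fluid with LNP-CDN and 1 fell, and the same counts were found with the combination, against 13.7% and 12.3% of all genes for LNP-CDN and 15.6% and 14.4% for the combination. Trim25, the ligase that ubiquitinates RIG-I, was 53.5, 52.8 and 54.5 FPKM under PBS, 90.8, 95.3 and 92 under LNP-CDN and 77.99, 78.6 and 76.5 under the combination. The libraries of each group lay within a narrow range and no 2 of these groups overlapped. The log2 difference from PBS was 0.78 (SE 0.09, adjusted p = 0.000205) for LNP-CDN and 0.53 (SE 0.09, adjusted p = 0.00136) for the combination. Of all members tested in fluid, Trim25 had the lowest adjusted p between combination and LNP-CDN, but that difference of -0.25 (SE 0.09) did not pass in limma (adjusted p = 0.833).

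Trim21, the cytosolic receptor for the constant part of antibodies, was 10.3, 10.7 and 9.02 FPKM under PBS, 23.1, 31.7 and 22.1 under LNP-CDN and 29.2, 27.6 and 26.97 under the combination. It had the third largest rise of the tested members with LNP-CDN, 1.26 (SE 0.14, adjusted p = 0.000254) for LNP-CDN and 1.39 (SE 0.14, adjusted p = 0.00013) for the combination, with no overlap with PBS. Trim14, an adaptor at MAVS, was 7.899, 8.604 and 5.78 FPKM under PBS and 13.2, 15.2 and 16.9 under LNP-CDN, a difference of 0.94 (SE 0.20, adjusted p = 0.00769). Of its exon bases, 31.3% overlap Nans on the other strand, and the library kit does not mark strand, so reads of the pair cannot be told apart there.

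Trim65, a ligase of MDA5, and Trim26, reported to act on IRF3, showed smaller changes. Trim65 was 2.91, 3.19 and 2.74 FPKM under PBS and 4.89, 4.08 and 5.13 under LNP-CDN, a difference of 0.53 (SE 0.09, adjusted p = 0.00243). With the combination it was 3.896, 3.79 and 3.94 FPKM, 0.31 (SE 0.09, adjusted p = 0.0278), which passed only with all libraries or without fluid PBS replicate 2. Trim26 was 12.5, 12.9 and 12.97 FPKM under PBS and 15.8, 17.6 and 16.9 under LNP-CDN, without overlap, and differed by 0.36 (SE 0.08, adjusted p = 0.01). Trim27, known to restrain the kinases IKK and TBK1, moved the other way. It was 9.55, 8.62 and 9.45 FPKM under PBS, 7.81, 7.05 and 7.49 under LNP-CDN and 7.49, 7.25 and 7.47 under the combination, so all treated libraries were below all PBS libraries. The difference was -0.27 (SE 0.06, adjusted p = 0.00892) for LNP-CDN and -0.28 (SE 0.06, adjusted p = 0.00649) for the combination.

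The other 7 signaling members did not pass in fluid under LNP-CDN. Trim56, a ligase of STING, was 15.2, 16.3 and 15.4 FPKM under PBS and 17.8, 24.6 and 17.8 under LNP-CDN. The groups did not overlap, but the difference was 0.33 (SE 0.13, adjusted p = 0.082). Trim8, among the most abundant members at 50.03 to 51.3 FPKM under PBS, was 56.3 to 62.4 FPKM under LNP-CDN, a difference of 0.22 (SE 0.09, adjusted p = 0.108). Trim13, a ligase of the endoplasmic reticulum, was 3.83, 3.88 and 2.62 and 5.32, 4.14 and 3.997 FPKM. Trim32, which carries NHL repeats and is mutated in a muscular dystrophy, was 4.22, 4.31 and 3.903 and 4.96, 4.08 and 5.12 FPKM, overlapping. Trim23, Trim35 and Trim41 had log2 differences of 0.16, 0.13 and 0.24. Trim38, also a signaling regulator, was below the rule at no more than 0.201 FPKM in any library.

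**Figure D2:**
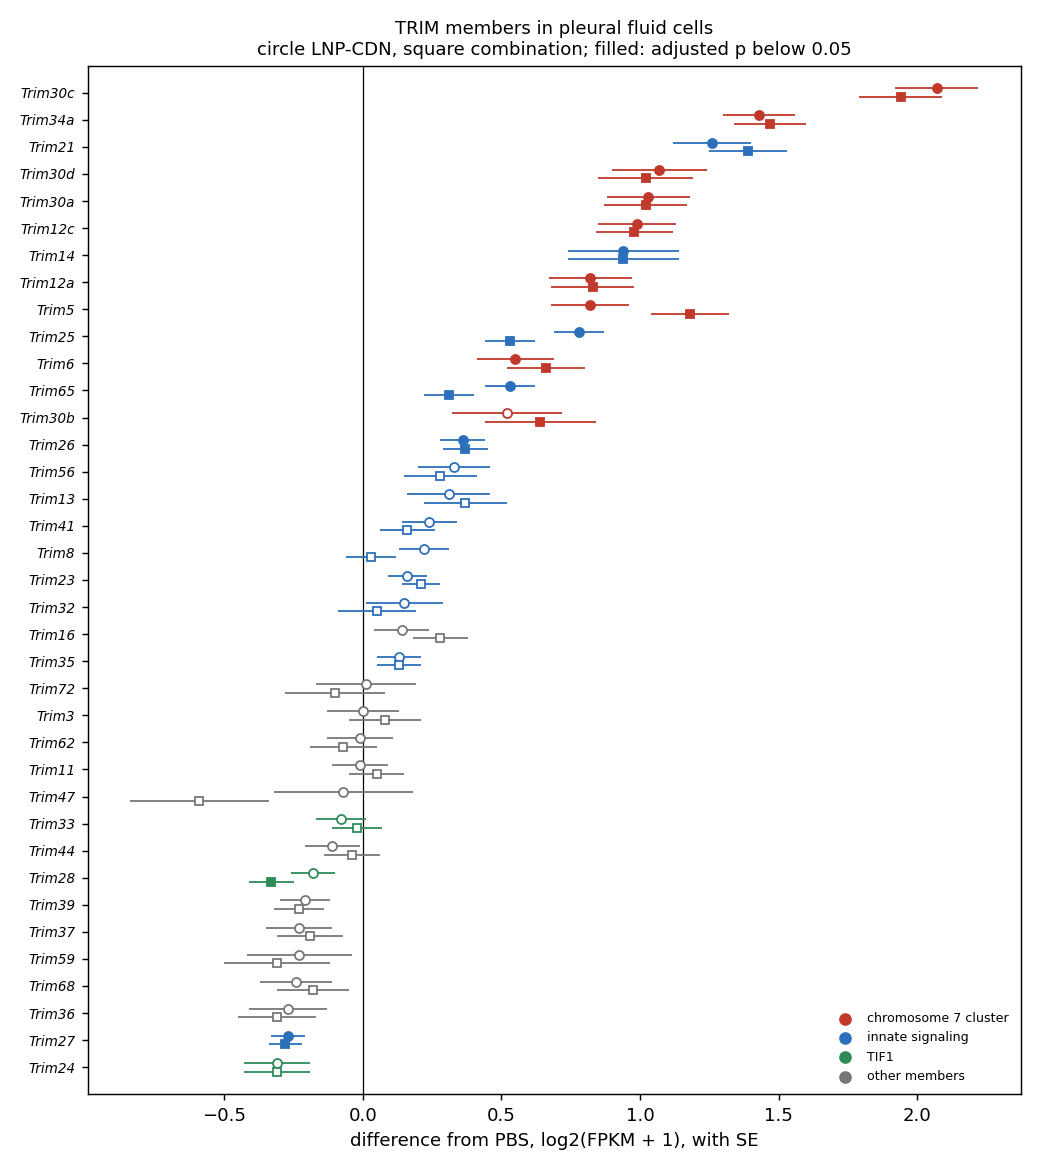
Difference from PBS in log2(FPKM + 1), with its SE, for the 37 members tested in pleural fluid cells under LNP-CDN (circles) and the combination (squares). Filled symbols have a limma adjusted p below 0.05; cluster members (red) and signaling members (blue) fill the upper part, from Trim30c at 2.07, while the TIF1 members (green) lie below 0.

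The TIF1 proteins repress chromatin, and TRIM28 is the corepressor that KRAB zinc finger proteins bring to endogenous retroviruses. Trim28 in fluid was 33.7, 31.8 and 34.96 FPKM under PBS, 30.4, 26.6 and 31.5 under LNP-CDN and 25.6, 25.6 and 28.3 under the combination. All treated libraries were below all PBS libraries. The difference did not pass for LNP-CDN (-0.18 (SE 0.08, adjusted p = 0.146)) and passed for the combination (-0.33 (SE 0.08, adjusted p = 0.0152)), though not without fluid PBS replicate 3, combination replicate 1 or combination replicate 2. Trim24 was 3.26, 3.22 and 4.001 FPKM under PBS and 2.94, 2.42 and 2.51 under LNP-CDN, with a difference of -0.31 (SE 0.12, adjusted p = 0.0779). Trim33, which acts on SMAD4, was 5.896 to 6.67 FPKM under PBS and 5.73 to 5.997 under LNP-CDN, overlapping. Of 9 listed partners of the KRAB corepressor complex, Atf7ip, Cbx1 and Setdb1 rose and Chd4 fell in fluid with LNP-CDN, where 13.7% of all genes rose and 12.3% fell. With 9 genes, these counts are not far from those shares.

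None of the 15 members outside these roles rose or fell in fluid with LNP-CDN or with the combination, among the 9 tested. Their log2 differences with LNP-CDN had a median of -0.11. Trim47 was the widest, at 9.52, 9.39 and 9.57 FPKM under PBS, 11.4, 5.35 and 11.6 under LNP-CDN and 7.88, 4.99 and 5.33 under the combination. LNP-CDN replicate 2 was far below the other 2 libraries of its group. Trim11, Trim44 and Trim16 had differences of -0.01, -0.11 and 0.14, and Trim37, a centrosome regulator, -0.23.

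Cell type markers moved with treatment in the same fluid libraries. Ptprc was 50.4, 51.8 and 52.9 FPKM under PBS and 59.3, 71.6 and 63.6 under LNP-CDN, without overlap, a difference that did not pass (0.32 (SE 0.11, adjusted p = 0.057)). The sum of 6 neutrophil genes was 3906, 3265 and 5129 under PBS and 1163, 2830.0 and 815 under LNP-CDN, and 2 of the 6 fell. The sum of 5 B cell genes was 52.3, 39.4 and 80.4 and 3.62, 4.08 and 6.596, and all 5 fell. Of 7 macrophage genes, 4 rose, with sums of 3147, 3313 and 2820.0 and 4054, 3725 and 4839. The sum of 3 monocyte genes was 278, 299.9 and 271 and 304, 562 and 350.2. LNP-CDN replicate 2, the library with the highest Trim30a, Trim30b, Trim30c and Trim34a, was also the highest here. It was also the highest of its group in the neutrophil sum and the lowest in the macrophage sum. The sum of 11 interferon-stimulated reference genes was highest in it too, at 1431, 2101 and 1532 with LNP-CDN. The 3 monocyte genes did not move together: Ly6c2 rose, 3.07 (SE 0.33, adjusted p = 0.000183), Vcan fell, -1.57 (SE 0.26, adjusted p = 0.0019), and Ccr2 did not pass. Without LNP-CDN replicate 2, 14 members passed, Trim6 no longer among them. The part of these shifts in the TRIM changes was not tested.

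In pleural tumor cells, fewer members passed with LNP-CDN: 5 rose, Trim25, Trim27, Trim30a, Trim30c and Trim30d, and 1, Trim24, fell, of 37 tested. The median log2 difference over the 37 was 0.15, against 0.01 over all genes. Of all genes tested there, 3.36% passed: 1.89% rose and 1.47% fell. The count depended on individual libraries and dropped from 6 to 0 without tumor PBS replicate 2 or without tumor LNP-CDN replicate 3, to 1 without tumor PBS replicate 1 or LNP-CDN replicate 1, and to 2 without LNP-CDN replicate 2. Without a filter on low values 1 member passed.

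Trim25 in tumor was 16.8, 18.6 and 20.8 FPKM under PBS, 27.2, 28.1 and 26.99 under LNP-CDN and 31.1, 27.4 and 27.9 under the combination. No treated library overlapped PBS, and the difference was 0.53 (SE 0.09, adjusted p = 0.0148) for LNP-CDN and 0.60 (SE 0.09, adjusted p = 0.00999) for the combination. Trim30a was 5.04, 4.07 and 6.12 FPKM under PBS, 9.56, 11.2 and 13.2 under LNP-CDN and 14.3, 13.9 and 12.3 under the combination, again without overlap, with differences of 1.03 (SE 0.20, adjusted p = 0.0259) and 1.27 (SE 0.20, adjusted p = 0.0131). Its level stayed far below that of fluid, but its difference on log2(FPKM + 1) with LNP-CDN was 1.03 in both tissues. Mean FPKM with LNP-CDN was 2.07 times that under PBS in fluid and 2.23 times in tumor.

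Trim30d was 2.46, 1.73 and 1.98 FPKM under PBS and 3.51, 4.003 and 4.09 under LNP-CDN in tumor, a difference of 0.68 (SE 0.15, adjusted p = 0.0386). Trim30c was 0.243, 0.303 and 0.653 and 1.04, 2.19 and 2.21 FPKM, 0.99 (SE 0.23, adjusted p = 0.0453). Both were without overlap. Trim27, lower in fluid, was higher in tumor, at 10.6, 11.2 and 12.3 FPKM under PBS and 13.7, 14.3 and 13.9 under LNP-CDN, 0.28 (SE 0.06, adjusted p = 0.0394). Trim24 fell from 10.9, 11.1 and 10.4 to 8.27, 8.36 and 6.84 FPKM, -0.42 (SE 0.08, adjusted p = 0.0256).

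With the combination, 5 members rose in tumor and none fell, against 0.881% and 0.304% of all genes (1.18% in both directions): Trim21, Trim25, Trim30a, Trim30d and Trim34a. The count was 0 without tumor PBS replicate 2 or combination replicate 1, 1 without combination replicate 2, 2 without combination replicate 3 and 3 without PBS replicate 3. Trim21 was 4.25, 3.44 and 3.48 FPKM under PBS and 6.77, 7.45 and 6.18 under the combination, 0.72 (SE 0.14, adjusted p = 0.0325). Trim34a was 1.95, 1.36 and 1.61 and 3.73, 3.63 and 3.82 FPKM, 0.85 (SE 0.14, adjusted p = 0.0193). Neither gene overlapped between the groups. Trim12c at 5.398, 5.49 and 4.94 FPKM and Trim12a at 2.56, 2.93 and 2.56 FPKM were also above all PBS libraries, but their differences of 0.83 (SE 0.19, adjusted p = 0.0613) and 0.54 (SE 0.15, adjusted p = 0.121) did not pass. Trim14, Trim5 and Trim6 were below the filter in tumor, and Trim14 was 0.491, 0.515 and 0.579 FPKM under PBS and 1.02, 0.964 and 0.891 under the combination.

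Some cell type markers also moved in these tumor libraries. Ly6c2, a monocyte gene, was 1.31, 0.9104 and 1.25 FPKM under PBS, 4.79, 5.45 and 6.38 with LNP-CDN and 7.47, 5.36 and 5.55 with the combination, 1.60 (SE 0.21, adjusted p = 0.00873) and 1.72 (SE 0.21, adjusted p = 0.00383), while the other 2 of 3 monocyte genes did not pass. Mmp8 rose among 6 neutrophil genes with both treatments, 0.86 (SE 0.17, adjusted p = 0.0293) and 0.93 (SE 0.17, adjusted p = 0.0265), and Fcgr1 among 7 macrophage genes with the combination, 1.10 (SE 0.20, adjusted p = 0.0232). The summed FPKM of each list was 34.9, 32.96 and 34.6 under PBS, 28.8, 30.1 and 32.8 with LNP-CDN and 34.6, 36.3 and 32.3 with the combination for monocyte genes, 102, 128 and 151, 84.7, 108 and 79.7 and 122, 74.8 and 70.5 for neutrophil genes, and 344, 364 and 372, 358, 436 and 373 and 403, 451 and 452 for macrophage genes. The macrophage sums with the combination lay above all PBS sums. The monocyte sums with LNP-CDN lay below all PBS sums of that list. The other sums of these lists overlapped PBS. Endothelial sums were 3.70 to 4.25 under PBS, 4.84 to 7.125 with LNP-CDN and 5.74 to 6.22 with the combination. NK cell sums were 0.152 to 0.237, 0.371 to 0.729 and 0.276 to 0.597, with all 4 genes below the filter. Cardiac muscle sums with LNP-CDN and erythroid sums with the combination lay below all PBS sums. Ptprc was 4.57, 3.92 and 4.08, 4.499, 4.297 and 6.07 and 5.04, 5.77 and 4.95 FPKM. The part of these markers in the TRIM changes was not tested.

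Whether the responses differed between the tissues was tested on all 24 libraries. For LNP-CDN, 9 of 43 tested members differed: Trim14, Trim21, Trim23, Trim30c, Trim34a, Trim5 and Trim65 had a lower difference in tumor than in fluid, and Trim27 and Trim28 a higher one. Trim27 fell in fluid and rose in tumor, whereas Trim28, at -0.18 in fluid and 0.31 in tumor, passed in neither tissue alone. Of all genes, 15.3% passed this test, 7.86% upward in tumor relative to fluid and 7.40% downward. The count of 9 of 43 is not far from that share, so it is not a result about the family. For Trim27 the tumor change exceeded the fluid change by 0.55 (SE 0.08, adjusted p = 0.000258), and for Trim28 by 0.49 (SE 0.15, adjusted p = 0.0384). Trim28 in tumor was 35.4, 48.2 and 54.4 FPKM under PBS and 56.6, 56.4 and 55.8 under LNP-CDN, above all PBS libraries, but that difference alone did not pass (0.31 (SE 0.12, adjusted p = 0.181)). Trim21 differed by -0.80 (SE 0.21, adjusted p = 0.0144), Trim23, which carries a GTPase domain beside its RING, by -0.49 (SE 0.12, adjusted p = 0.0114), and Trim65 by -0.50 (SE 0.14, adjusted p = 0.0173). These 5 also passed with a pseudocount of 0.1 and in limma-voom on the recovered reads, but Trim28 lost its call in 8 of the 12 fits that left out 1 library of these groups: without fluid PBS replicate 1 or 3, fluid LNP-CDN replicate 1 or 2, tumor PBS replicate 1, or any tumor LNP-CDN library.

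Trim14, Trim30c, Trim34a and Trim5 did not pass with a pseudocount of 0.1 or in limma-voom. For Trim30c, mean FPKM under LNP-CDN was 4.51 times that under PBS in fluid and 4.54 times in tumor. On log2(FPKM + 1) the tumor change was smaller, by -1.08 (SE 0.28, adjusted p = 0.014); the tumor levels lie near or below the pseudocount of 1. With a pseudocount of 0.1 the difference was -0.18 (limma adjusted p = 0.851), and in limma-voom it was 0.16 (adjusted p = 0.905). For the combination, 8 members differed, against 15.0% of all genes (7.86% upward and 7.17% downward): Trim27 and Trim28 upward in tumor relative to fluid, and Trim21, Trim23, Trim30c, Trim34a, Trim5 and Trim6 downward. For Trim30c, mean FPKM with the combination was 4.03 times that under PBS in fluid and 4.4 times in tumor. Its tissue difference was -0.95 in the main fit and -0.03 (limma adjusted p = 0.98) with a pseudocount of 0.1. In limma-voom it was 0.24 (adjusted p = 0.843). The count of 8, not far from the share of all genes, fell to 2 without fluid combination replicate 2. It was also lower with a pseudocount of 0.1 and in limma-voom, as given below. Trim5 and Trim6 averaged 0.446 and 0.567 FPKM in tumor under PBS, below the pseudocount of 1. Mean FPKM with the combination was 2.52 times that under PBS in fluid and 2.01 times in tumor for Trim5. These ratios were 2.94 and 2.27 for Trim34a and 2.18 and 1.2 for Trim6. The tissue difference for the combination was 0.46 (SE 0.08, adjusted p = 0.00112) for Trim27 and 0.53 (SE 0.15, adjusted p = 0.0253) for Trim28.

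**Figure D3:**
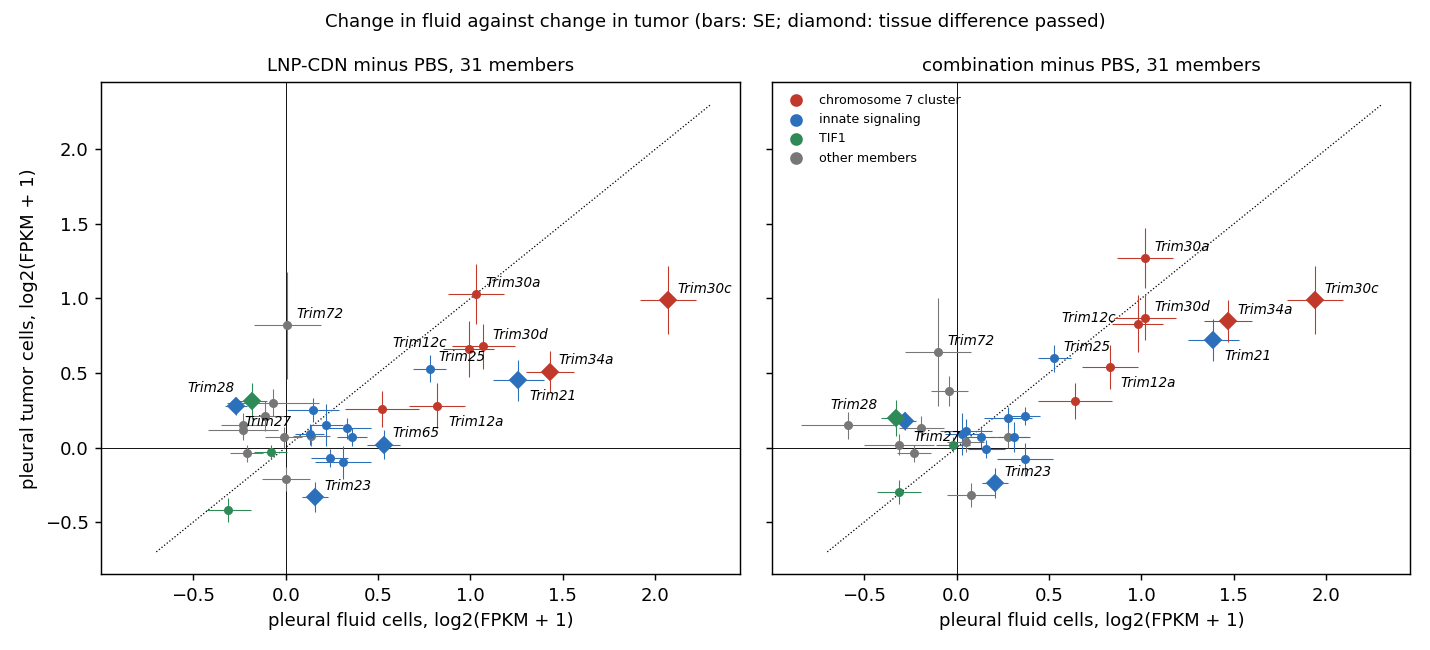
Log2(FPKM + 1) difference from PBS in pleural fluid cells (horizontal) against pleural tumor cells (vertical), for LNP-CDN (left) and the combination (right), in the 31 members tested in both tissues. Bars are SE, the dotted line marks equal change and diamonds mark members whose tissue difference had a limma adjusted p below 0.05; Trim30a lies at 1.03 on both axes for LNP-CDN, and Trim27 and Trim28 lie below 0 in fluid and above 0 in tumor.

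Under PBS alone, the family was split between the tissues. Of 43 members tested, 18 were higher in tumor and 22 higher in fluid, against 37.0% and 37.9% of all genes (74.8% in both directions), and Trim13, Trim54 and Trim63 did not pass. All 9 tested members of the chromosome 7 cluster were lower in tumor, with a median log2 difference of -2.75. Trim30a was 107, 107 and 111 FPKM in fluid and 5.04, 4.07 and 6.12 FPKM in tumor, -4.19 (SE 0.18, adjusted p = 2e-13), and Trim30b 24.1, 22.3 and 26.9 and 0.66, 0.594 and 0.837 FPKM. The mean of Trim30a in fluid was 21.4 times that in tumor, and that of Ptprc 12.3 times. Trim25, Trim8 and Trim14 were also lower in tumor, by -1.47, -1.21 and -2.45 on the log2 scale.

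The 3 TIF1 members were higher in tumor. Trim28 was the most abundant member there, at 35.4, 48.2 and 54.4 FPKM against 33.7, 31.8 and 34.96 FPKM in fluid, 0.43 (SE 0.11, adjusted p = 0.0015). Tumor PBS replicate 1 was close to the fluid libraries. Trim24 was 10.9, 11.1 and 10.4 FPKM in tumor and 3.26, 3.22 and 4.001 FPKM in fluid, 1.40 (SE 0.10, adjusted p = 1.88e-10), and Trim33 9.41, 9.54 and 9.92 and 5.896, 6.13 and 6.67 FPKM. Trim59 had the highest difference toward tumor, 21.7, 22.3 and 25.3 FPKM against 4.83, 4.74 and 5.25 FPKM, 2.02 (SE 0.15, adjusted p = 3.49e-10). Trim37 followed with 9.802, 11.5 and 11.9 against 3.42, 3.45 and 3.07 FPKM, 1.48 (SE 0.10, adjusted p = 8.31e-11). Trim2, which ubiquitinates neurofilament, Trim46, a microtubule protein of the axon, and Trim45 were above 1 FPKM in all tumor PBS libraries and at most 0.902 FPKM in the fluid PBS libraries. Rescaling every library to the same sum of FPKM shifts the median gene by 0.38 toward tumor. Under it Trim26, lower in tumor by -0.41 as deposited, moved to 0.04 (limma adjusted p = 0.829). Leukocyte and epithelial markers differ between these tissues as given above, and their part in these differences was not tested.

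**Figure D4:**
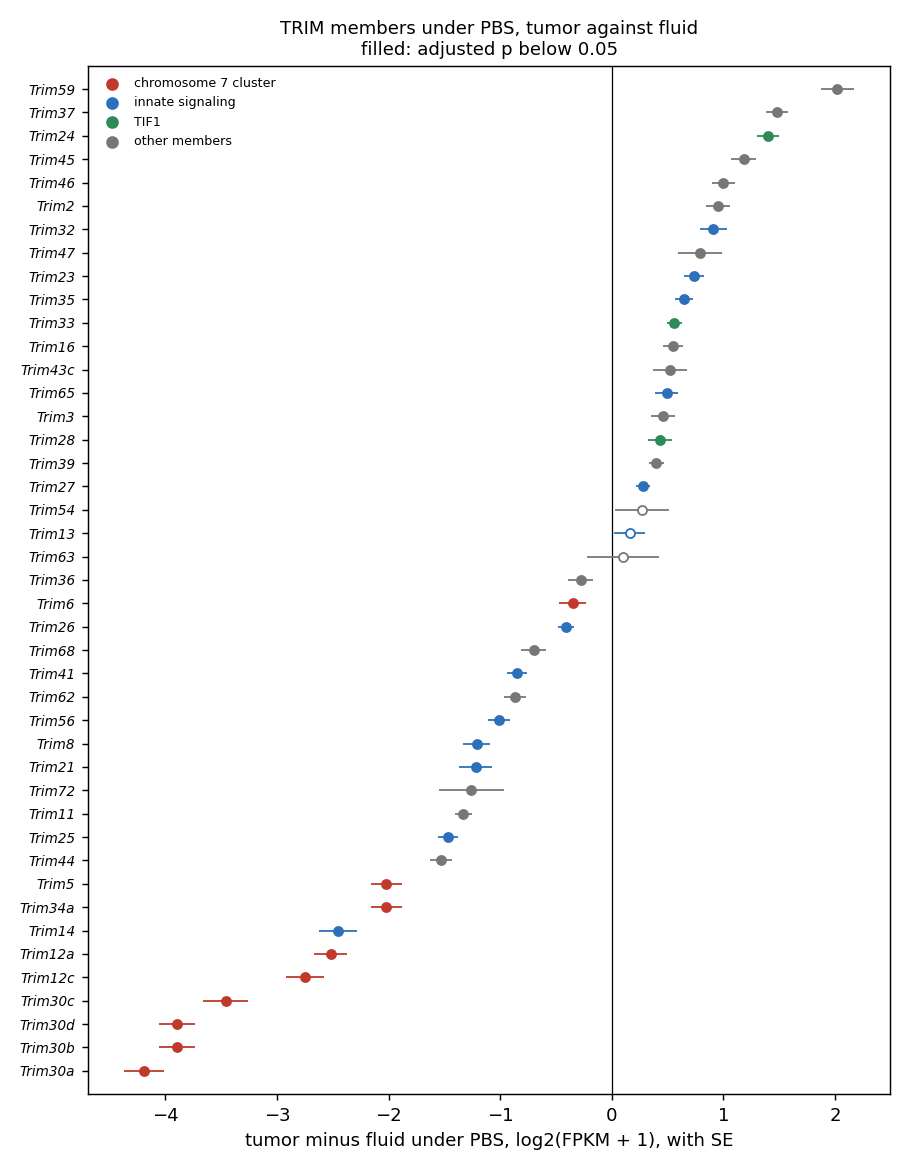
Tumor minus fluid difference under PBS in log2(FPKM + 1), with its SE, for 43 members, ordered by size and colored by role. Filled symbols have a limma adjusted p below 0.05; the range runs from -4.19 for Trim30a to 2.02 for Trim59, and the 9 cluster members (red) all lie below 0.

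With anti-PD-L1 alone, the share of members called in fluid was near that of all genes. There 1 member rose, Trim65, and 4 fell, Trim11, Trim30b, Trim30d and Trim39, of 37 tested, against 5.47% and 7.49% of all genes (13.0% in both directions), so the count of 5 is not a result about the family. Trim30b was 10.5, 12.1 and 8.64 FPKM with the antibody against 24.1, 22.3 and 26.9 under PBS, -1.16 (SE 0.20, adjusted p = 0.00605). Every antibody library was below every PBS library. Trim11 was 15.7, 15.8 and 13.7 against 21.7, 21.1 and 22.9 FPKM, also without overlap, -0.52 (SE 0.10, adjusted p = 0.00789). Trim30d was 37.9, 27.6 and 23.9 FPKM, -0.59 (SE 0.17, adjusted p = 0.0438), Trim39 4.65, 4.29 and 4.43 against 5.93, 5.86 and 7.11 FPKM, -0.42 (SE 0.09, adjusted p = 0.0151), and Trim65 4.56, 3.98 and 3.75 FPKM, 0.37 (SE 0.09, adjusted p = 0.026). The count of 5 fell to 2 when the third PBS library of fluid was left out, and to 3 when the first was, or when anti-PD-L1 replicate 2 was.

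These libraries are the ones with Ddx3y reads, and other markers moved with them. All 6 neutrophil genes fell, with sums of 801, 1071 and 626 against 3906, 3265 and 5129 under PBS, as did all 5 B cell genes, with sums of 6.92, 8.81 and 8.22 against 52.3, 39.4 and 80.4, and all 4 NK cell genes. Their part in the TRIM changes was not tested. Trim30a was 104, 85.97 and 67.03 FPKM, all below PBS, but its difference of -0.36 (SE 0.15, adjusted p = 0.145) did not pass.

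In tumor no member passed for anti-PD-L1 (limma), none had an unadjusted p below 0.05, and limma-voom called none either, as was the case for 0% of all genes in limma. The difference between anti-PD-L1 and PBS differed between tissues for Trim11 (0.61 (SE 0.12, adjusted p = 0.00514)) and Trim30b (0.97 (SE 0.22, adjusted p = 0.0153)). These 2 members passed and 41 did not, near the share of all genes, 5.31% (3.58% upward and 1.73% downward). The count is therefore not a result about the family. Sex and treatment cannot be told apart in the fluid part of this test. Trim11 in tumor was 8.68, 7.55 and 8.13 FPKM under PBS and 9.08, 9.29 and 7.86 with the antibody, overlapping. Trim30b in tumor was at most 1.25 FPKM in any group, near the pseudocount, and its tissue difference did not pass with a pseudocount of 0.1 or in limma-voom.

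Adding the antibody to LNP-CDN did not move any member past the threshold. Combination against LNP-CDN gave 0 members in fluid (limma; 3 with an unadjusted p below 0.05, and 0 in limma-voom) and 0 in tumor (2 unadjusted, and 0 in limma-voom), where 0% and 0% of all genes passed. In fluid the members' log2 differences lay between -0.52 (Trim47) and 0.36 (Trim5), and in tumor between -0.40 (Trim63) and 0.33 (Trim34a). For Trim30a the difference was -0.02 (SE 0.15) in fluid and 0.24 (SE 0.20) in tumor. A test that does not pass leaves differences within such errors undecided.

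Against the antibody alone, the combination raised 16 members in fluid and lowered 7, Trim24, Trim27, Trim28, Trim37, Trim47, Trim59 and Trim68, where 37.3% of all genes passed (18.4% rose and 18.9% fell). All 9 tested cluster members were among the 16, led by Trim30b (1.80 (SE 0.20, adjusted p = 0.00014)), which was 10.5, 12.1 and 8.64 FPKM with the antibody and 38.3, 41.6 and 35.7 FPKM with the combination. Trim56 also passed here, at 12.96, 10.1 and 11.7 against 18.3, 21.2 and 18.2 FPKM, 0.69 (SE 0.13, adjusted p = 0.00211). Trim47 was 12, 17.5 and 14.9 FPKM with the antibody and 7.88, 4.99 and 5.33 FPKM with the combination, -1.17 (SE 0.25, adjusted p = 0.00474). These comparisons share the sex difference between the groups described above. In tumor, Trim25, Trim30a, Trim30d and Trim34a were higher with the combination than with the antibody alone, a comparison that carries the same sex difference, against 1.55% of all genes (1.16% rose and 0.387% fell). That count was 0 without tumor combination replicate 1.

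3 members are muscle proteins: Trim63 and Trim54, RING finger ligases of the sarcomere, and Trim72, which reseals torn muscle membranes. In tumor, Trim63 was 0, 0.238 and 0.0188 FPKM under PBS, 0.675, 1.77 and 0.107 with the antibody, 1.15, 0.0378 and 2.15 with LNP-CDN and 1.15, 0.148 and 0.227 with the combination. In each treated group the libraries ranged widely and overlapped those of PBS, and no comparison passed. The LNP-CDN difference was 0.83 (SE 0.42, adjusted p = 0.29) for Trim63, 0.82 (SE 0.36, adjusted p = 0.224) for Trim72 and 0.54 (SE 0.32, adjusted p = 0.355) for Trim54. The summed FPKM of 12 skeletal muscle genes in the same libraries was 5.597, 20.4 and 5.303 under PBS, 30.9, 129 and 8.38 with the antibody, 101, 6.09 and 236 with LNP-CDN and 147, 18.1 and 56.02 with the combination. The 4 libraries with the highest muscle sums were also the 4 highest for Trim63, Trim54 and Trim72. The part of muscle in these values was not tested. In fluid, Trim54 was 0 in 10 of 12 libraries and Trim63 at most 0.0867 FPKM, whereas Trim72 was 1.26 to 2.09 FPKM under PBS. Of the exon bases of Trim72, 27.6% overlap Gm15533 on the other strand.

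**Figure D5:**
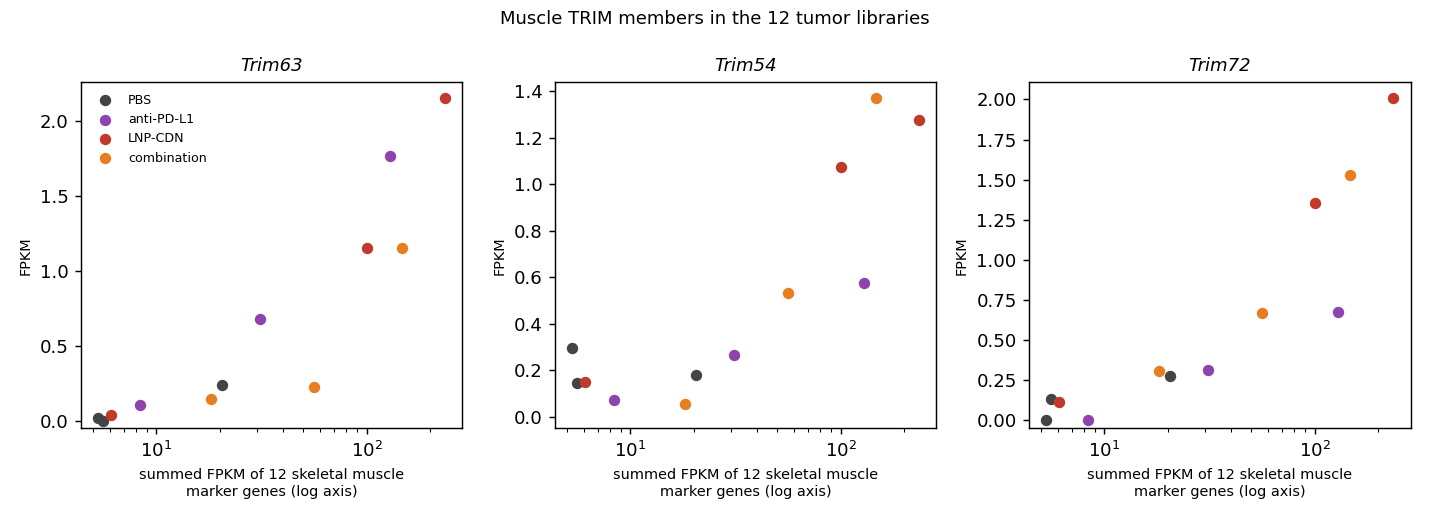
FPKM of Trim63, Trim54 and Trim72 in the 12 pleural tumor libraries against the summed FPKM of 12 skeletal muscle marker genes in the same library (log axis), colored by treatment. The 4 libraries with muscle sums above 100 come from the anti-PD-L1, LNP-CDN and combination groups and include the highest Trim63 value, 2.15 FPKM, in an LNP-CDN library.

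Trim10 and Trim58, TRIM proteins of red cell precursors, fell below the rule. Trim10 in fluid was 0.205, 0.408 and 0.759 FPKM under PBS, 0.2898, 0.1502 and 0.327 with the antibody, 0, 0.0655 and 0 with LNP-CDN and 0, 0.0257 and 0.0801 with the combination. Trim58 was at most 0.0600 FPKM in any library. The sum of the 6 erythroid genes found in the table was 32.4, 20.3 and 60.8 under PBS, 44.8, 17.3 and 23.4 with the antibody, 0.355, 0.964 and 1.08 with LNP-CDN and 0.349, 0.648 and 0.1499 with the combination. Both Trim10 and these genes were highest in the PBS and antibody groups.

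The remaining members were low. Trim7, reported to bind glycogenin, was 0.727, 0.465 and 0.938 FPKM under PBS and 0.258, 0.232 and 0.308 with LNP-CDN in fluid. Trim43a, a gene of early embryos, was 0.5304, 0.494 and 0.9205 and 0, 0.185 and 0 FPKM, and shared 45.9% of its 50-base words with other genes. In neither case did the groups overlap, but both genes were below the filter. Trim71, a stem cell NHL protein, was 0.562 to 0.787 FPKM in tumor and 0.0423 to 0.0718 FPKM in fluid under PBS. Trim80 was 0.359 to 0.432 FPKM in tumor and at most 0.0340 FPKM in fluid under PBS. Trim69 was 0.376, 0.3303 and 0.141 FPKM in tumor under PBS and 0.881, 0.5502 and 0.768 with LNP-CDN, without overlap.

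Partners of the TRIM ligases moved with them in fluid under LNP-CDN. Of 4 TRIM proteins under other symbols, 3 were tested and 2 rose: Pml, the organizer of nuclear bodies, from 21 ± 1.11 to 46.6 ± 6.62 FPKM (SD, n = 3), 1.11 (SE 0.13, adjusted p = 0.000357), and Mefv, which encodes pyrin, 0.81 (SE 0.19, adjusted p = 0.0098). Of 16 listed signaling partners, among them sensors, adaptors and kinases, 12 rose and none fell, where 13.7% of all genes rose and 12.3% fell. Ddx58, which encodes RIG-I, the target of TRIM25, was 11.98, 10.8 and 13.7 FPKM under PBS and 36.3, 47.2 and 38.6 with LNP-CDN, 1.66 (SE 0.11, adjusted p = 1.56e-05). Tmem173, which encodes STING, was 43.7, 51.9 and 38.8 and 65.2, 80.7 and 77.4 FPKM, 0.72 (SE 0.22, adjusted p = 0.0321). All 5 genes of the ISG15 system rose, with Isg15 at 65.4, 65.9 and 67.96 and 318, 595 and 413 FPKM. In tumor with LNP-CDN, 4 of 15 partners rose (Ddx58, Dhx58, Irf7 and Tmem173), as did Pml and 3 of 5 ISG15 genes, where 1.89% of all genes rose.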

How the data were processed

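Poly-A RNA from 24 libraries was sequenced, and per the labels' protocols the kit was unstranded. The submitters' processing notes list fastp, STAR, featureCounts, DESeq2 and mm9, with neither versions nor roles. The authors deposited 1 FPKM value per gene and library, for 54505 genes. Their coordinates equalled GENCODE M21 (GRCm38) for 53474 of 54383 matched genes and 47 of 49 members, so GRCm38 is used. Groups follow the sample titles.

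FPKM times gene length came out as a whole number of reads (tolerance 0.01) for 99.97 to 99.99% of values in a library; 21 genes without whole reads, none a member, were left out. limma 3.58.1 was fitted to log2(FPKM + 1), with a trended prior, for genes with at least 1 FPKM in 3 libraries. Treatments were fitted per tissue and tissue differences over all 24 libraries, with Benjamini-Hochberg adjustment over all genes tested (threshold 0.05). Replicates were not duplicates (chi-square per degree of freedom between 4.90 and 95.7). No label states that they are separate mice, so p-values measure the spread between these libraries. An exact permutation test of 3 against 3 libraries cannot go below p = 0.1 and was not used.

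Per-library values are given for members past the threshold with a log2 change of at least 0.5 with LNP-CDN or the combination, and for 20 members with known roles; others were added after their values were seen. Members and lists were chosen with earlier results of these data known. Alternatives were other pseudocounts, filters and scalings, a replicate block, limma-voom on recovered reads, a fit of only the libraries compared, and leaving out each library. The fit was also run on simulated reads, with the same spread set for all genes and changes placed only in well-covered genes. That run therefore does not cover members of low FPKM or the spread between the real libraries.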

Additional observations from a re-analysis of the deposited data

Results flagged for a closer look

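The following members had a treatment effect that differed between pleural tumor cells and pleural fluid cells by a test of the difference itself (limma on log2(FPKM + 1), adjusted p below 0.05 over all genes tested); each value is the effect in tumor minus the effect in fluid. For LNP-CDN the differences were -0.81 for Trim14, -0.80 for Trim21, -0.49 for Trim23, -1.08 for Trim30c, -0.92 for Trim34a, -0.65 for Trim5 and -0.50 for Trim65, and 0.55 for Trim27 and 0.49 for Trim28. For the combination they were -0.67 for Trim21, -0.45 for Trim23, -0.95 for Trim30c, -0.62 for Trim34a, -0.77 for Trim5 and -0.56 for Trim6, and 0.46 for Trim27 and 0.53 for Trim28. For anti-PD-L1 they were 0.61 for Trim11 and 0.97 for Trim30b, where sex and treatment cannot be told apart in fluid. Of all genes, 15.3% passed for LNP-CDN, 15.0% for the combination and 5.31% for anti-PD-L1. The counts of members were not far from these shares. For LNP-CDN, Trim14, Trim30c, Trim34a and Trim5 did not pass with a pseudocount of 0.1 or in limma-voom. The same held for Trim30b with anti-PD-L1. Trim30c reversed in limma-voom, to 0.16 for LNP-CDN and 0.24 for the combination. For the combination, fewer members passed with a pseudocount of 0.1 and in limma-voom, as given below. Groups of 3 libraries are too small to look for outlying samples.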

How the results depend on the processing

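The counts of members passing the limma threshold in fluid held for LNP-CDN against PBS, for both combination comparisons with PBS and with anti-PD-L1, and for PBS tumor against fluid, within 1.5 times under every alternative. Without 1 library in turn they ranged from 13 to 15 (main 14), 13 to 15 (main 16), 18 to 22 (main 23) and 38 to 40 (main 40). The other counts ranged from 2 to 6 for anti-PD-L1 in fluid (main 5), 0 to 7 for LNP-CDN in tumor (main 6), 0 to 5 for the combination in tumor (main 5), 0 to 6 for combination against anti-PD-L1 in tumor (main 4), and, for the tissue differences, 6 to 12 for LNP-CDN (main 9), 2 to 4 for anti-PD-L1 (main 2) and 2 to 8 for the combination (main 8). Counts of 0 in both comparisons of combination with LNP-CDN and in tumor anti-PD-L1 against PBS stayed 0 without any 1 library.

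Other settings moved counts as follows, and the cause was not tested unless stated. Without a filter on low values, the counts were 3 for anti-PD-L1 in fluid and, in tumor, 1 for LNP-CDN, 1 for the combination and 2 for combination against anti-PD-L1, and 3 for the combination tissue difference. Scaling to the same sum of FPKM, of which the 1 short gene Gm23935 took 3.59 to 42.5%, gave 0 for LNP-CDN and 1 for the combination in tumor, and 2, 0 and 0 for the tissue differences of LNP-CDN, anti-PD-L1 and the combination; it shifted the median gene by 0.38 for PBS tumor against fluid, where Trim26 reversed to 0.04, and by -0.20 for anti-PD-L1 in tumor. Scaling to total reads, chosen after seeing the data, shifted the first of these medians by 0.29 and left every count within 1.5 times. limma-voom on the recovered reads gave 9 for the combination and 8 for combination against anti-PD-L1 in tumor, and 5, 1 and 5 for the tissue differences, with Trim30c reversed to 0.16 for LNP-CDN and 0.24 for the combination; it called 3559 genes in fluid LNP-CDN against PBS, against 3518 in limma. A pseudocount of 0.1 gave 5, 1 and 4 for the tissue differences. Fitting only the libraries compared gave 3 for LNP-CDN and 0 for combination against anti-PD-L1 in tumor.

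Samples with the same replicate number showed little tendency to deviate together. A correlation over 0.1 was found in 4 of 18 pairs in fluid, 1 of 18 in tumor and 3 of 12 fluid and tumor pairs. The highest values were 0.20, 0.11 and 0.23. Sums of 11 interferon-stimulated reference genes had the same replicate order in both tissues for LNP-CDN and anti-PD-L1, but not for PBS or the combination. Tumor PBS replicate 1 carried Ddx3y reads, whereas no fluid PBS library reached its level, as given above. By this gene, tumor and fluid PBS replicate 1 were not from 1 mouse. For the other libraries, pairing of fluid and tumor is not excluded. In the tissue comparisons the replicate block pairs fluid and tumor libraries by number, including those of PBS replicate 1. With the replicate block, 2 members passed for LNP-CDN in tumor, and the other counts stayed within 1.5 times. Single members kept direction and call in 1660 of 1958 refits, lost the call in 295 and reversed in the 3 named.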
